A study of Mus musculus with 8 samples.

Results

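Broad domains of the repressive histone mark H3K27me3 were studied in mouse embryonic fibroblasts, a primary cell culture made here from embryos at E13.5. A broad domain was made by joining the authors' wild-type H3K27me3 peaks on chromosomes 1 to 19 across gaps of up to 5000 bp, and was kept when it spanned more than 10000 bp from its first to its last base. The domains were thus chosen by the peaks of the wild-type H3K27me3 library alone. This gave 469 broad domains among 9156 joined domains, and the other 8687 spanned 10000 bp or less. The cells were wild type or E2f3-/- (E2f3 null), and the labels name no other allele, treatment or agent. Chromatin of each genotype was immunoprecipitated with 1 of 3 antibodies, which recognise E2F3, HELLS and H3K27me3, and with IgG as the background. The 8 samples gave 1 library for each genotype and antibody, so there were no replicates. No test between conditions was therefore made, and every interval below is a 95% interval for counting error only. The IgG reads deposited for both genotypes were identical and served as 1 background library.

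H3K27me3 is laid down by Polycomb repressive complex 2 and marks genes that are kept silent. Most of its sites are short, but at clusters of developmental regulators, of which the Hox clusters are the textbook example, it spreads over long stretches. E2F3 is a transcription factor of the cell cycle that binds promoters. HELLS (also called LSH) is a chromatin remodeler of the SNF2 family with a role in DNA methylation and heterochromatin.

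The broad domains covered 8.46 Mb, 0.342% of the autosomes. They held 36.9% of the length of all joined domains and 4008 of the 16700 autosomal wild-type H3K27me3 peaks. Their spans ran from 10004 to 75654 bp, with a median of 15015 bp and quartiles of 11948 and 20524 bp. A broad domain joined 3 to 36 peaks, with a median of 7, and the peaks filled between 10.6% and 97.0% of its span, with a median of 46.4%. Most joins were short, since the 3539 gaps had a median of 736 bp. Chromosome 2 held 65 broad domains, chromosome 11 held 50 and chromosome 4 held 49, whereas chromosomes 16 and 18 held 4 and 5. As shares of the joined domains of the same chromosome these were 8.04%, 6.36%, 6.14%, 1.72% and 2.08%. Chromosome 13, with 22 of 294 (7.48%), stood above chromosomes 11 and 4 by share. Many lay close to another one: 141 had a broad neighbour within 50 kb, although the median distance was 260 kb.

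The 5 broad domains just inside the limit spanned 10004 to 10042 bp and held 120 to 382 wild-type H3K27me3 reads each. The 5 joined domains just outside it spanned 9960 to 9987 bp and held 137 to 525 such reads. Values on either side of the limit therefore overlapped.

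Distinct aligned reads numbered 3799779 to 5640555 in the 6 antibody libraries and 7219419 for IgG. Reads were scaled by those outside every peak region of the series, and a scaled ratio to IgG is called enrichment here. IgG itself was denser in the broad domains, with 6.28 reads per kb against 2.82 over the autosomes, so results are given as ratios to it, and genotype ratios also with IgG reads subtracted.

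The longest broad domain, chr15:102739957-102815610 (mm9), spanned 75654 bp and joined 36 peaks. It held 2437 H3K27me3 reads in the wild-type and 1126 in the E2f3-null library, beside 440 for IgG. E2F3 gave 316 and 257 reads and HELLS 296 and 293, in the same order. It held no wild-type E2F3 or HELLS peak, but 30 H3K27me3 peaks of the E2f3-null list, the most of any broad domain. The E2F3 antibody had 1 peak there in null cells. So the longest stretch carried the mark in both libraries with no site of either protein on the wild-type lists.

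The second longest, chr2:74485980-74554766, spanned 68787 bp and had 2754 wild-type and 1042 null H3K27me3 reads over 467 for IgG. In contrast to the longest, it held 6 wild-type E2F3 peaks and 4 wild-type HELLS peaks, the most of any broad domain for both. Its E2F3 reads were 479 in wild-type and 322 in null cells, a scaled ratio of 0.699 (0.605 to 0.806), while HELLS gave 447 and 459 reads and stood at 1.02 (0.893 to 1.16). The third longest, chr6:52153383-52216647, spanned 63265 bp and had 2160 and 848 H3K27me3 reads over 485 for IgG. It held 5 E2F3 peaks and 1 HELLS peak. Its E2F3 reads were 430 and 332, a ratio of 0.802 (0.693 to 0.928). The next in length were chr3:87998299-88059068, with 1750 and 833 H3K27me3 reads and no E2F3 or HELLS peak in wild-type cells, and chr4:148225773-148280708, with 1257 and 553 reads and 1 peak of each protein.

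Chromosomes 15, 2 and 6, which held the 3 longest domains, are those that carry the Hoxc, Hoxd and Hoxa clusters in the RefSeq gene table of GRCm38.p6. That table is of another build than the reads. An mm9 annotation and genome were not used here, so no domain was assigned to a gene and no sequence is shown.

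The wild-type H3K27me3 library defined the broad domains, and its level there is a description. Wild-type enrichment over IgG ranged from 2.60 to 17.9, with a median of 7.68. The densest domain, chr8:72403389-72415094, held 1557 reads in 11706 bp, or 133 per kb, and 97.0% of its span was peak. The next densest were chr16:18581016-18592462, chr5:108146304-108156422, chr17:34806748-34817632 and chr4:109646044-109661250, at 86.7 to 100.0 reads per kb. These 5 spanned 10119 to 15207 bp, and 4 of them were below the median span.

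Whether the mark was also present without E2F3 was read from the E2f3-null H3K27me3 library, which the choice of domains did not use. Null enrichment over IgG ranged from 0.492 to 7.87, with a median of 4.34 and quartiles of 3.25 and 5.30. It was at least 2-fold, with an interval excluding 1, in 446 of the 469 broad domains (95.1%), against 39.5% of all 9156 joined domains. Pooled over their reads, the broad domains stood at 4.27 (4.23 to 4.32) and the shorter domains at 2.96 (2.93 to 2.98). The nearest shorter class, 5 to 10 kb, came closer, with 81.4% at 2-fold and a pooled value of 3.41 (3.37 to 3.46). At up to 1 kb 12.1% were at 2-fold, so high null enrichment was not particular to broad domains. The broad domains were thus almost all marked in null cells as well. The longer span of a broad domain gives it more reads and a narrower interval, which touches the count but not the pooled value.

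**Figure D1:**
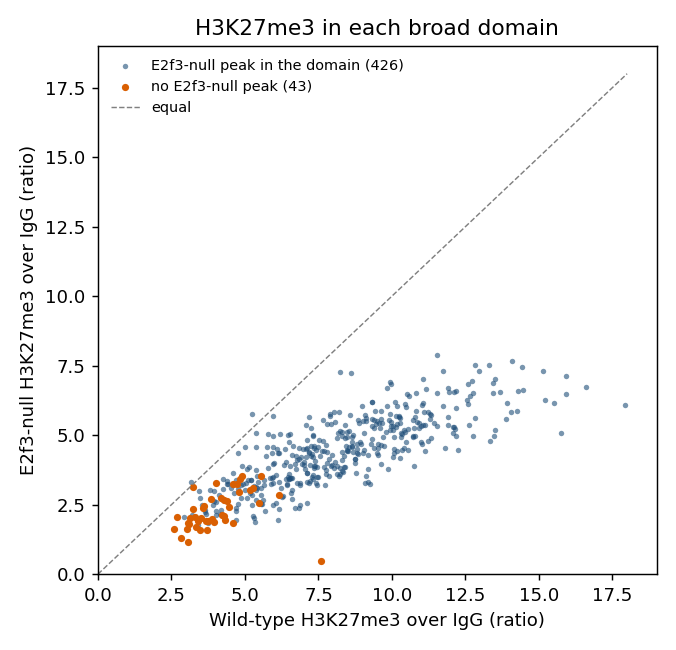
H3K27me3 reads over IgG (scaled ratio) in each of the 469 broad domains, wild type on the horizontal and E2f3 null on the vertical axis, with a dashed line of equal values. Points are broad domains, coloured by whether the E2f3-null list has a peak in them; 467 lie under the line, and 1 domain near a wild-type value of 7.60 sits alone at 0.492.

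The null peak list gave the same picture. At least 1 null H3K27me3 peak overlapped 426 of the 469 broad domains (90.8%, 87.8 to 93.3), against 28.0% of all joined domains. At 5 to 10 kb the share was 62.9% (59.3 to 66.4). In all, 2330 null peaks overlapped them and covered 22.6% of their length, where wild-type peaks covered 47.7%. In the shorter domains null peaks covered 17.9% of the length: 4.63% at up to 1 kb, 23.9% at 1 to 5 kb and 16.7% at 5 to 10 kb. Null peaks numbered 275 per Mb in broad domains and 287 per Mb at 1 to 5 kb, so neither value was particular to broad domains. A longer domain also has more room to hold at least 1 peak. There were 206 broad domains with 5 or more null peaks, 47 with 1 and 43 with none. Of the null peaks with their summit in a broad domain, 59.0% had a false discovery rate above 5%, against 68.1% of those elsewhere. With only peaks at or under 5%, 343 broad domains (73.1%) still held 1.

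Joined by the same rule, the null peaks formed only 157 broad domains, with a median span of 14591 bp and a longest of 35681 bp. Of these, 147 (93.6%) lay on a wild-type broad domain, and these were 31.3% of the wild-type ones. The null library was the shallowest of the antibody libraries, and the part of depth in the shorter null domains was not tested. The 10 null broad domains elsewhere were not empty in wild-type cells. The longest of them, chr11:96167952-96195812, spanned 27861 bp, overlapped 7 wild-type peaks and held 523 wild-type and 282 null reads over 108 for IgG.

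The 43 broad domains without a null peak were at the median weaker in both libraries. Their median wild-type enrichment was 3.89 against 8.13 in the other 426, their median null enrichment was 2.08 against 4.47, and the median score of their highest wild-type peak was 160 against 1202. One of the 43 was not weak in wild-type cells: it had an enrichment of 7.60 and a highest score of 2263, and is described below. The authors' score is the negative log10 of the peak's p-value, multiplied by 10. Null peaks also followed how densely a domain was filled by wild-type peaks. When the broad domains were cut into 4 classes by that share, 79 of 118 in the sparsest class (10.6% to 35.2% filled) held a null peak, and null enrichment was 2.96 (2.89 to 3.04). In the fullest class (59.4% to 97.0%) all 117 held 1, and null enrichment was 5.14 (5.05 to 5.24).

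Next, the 2 genotypes were compared over whole domains. Here the wild-type library is the one that chose the domains, so that the ratio is a description. The pooled null over wild-type H3K27me3 ratio was 0.530 (0.527 to 0.534), and single domains ranged from 0.0647 to 1.10 with a median of 0.541. By the 2-fold rule 159 broad domains (33.9%) were lower in null cells and 0 were higher, against 52.7% and 0% of all joined domains. The ratio was 0.422 (0.420 to 0.424) in the shorter domains. It rose with length class, from 0.320 at spans of up to 1 kb through 0.413 at 1 to 5 kb and 0.493 at 5 to 10 kb to 0.508 at 10 to 15 kb, and stood at 0.547 above 30 kb. With IgG reads subtracted it was 0.464 in broad and 0.326 in shorter domains. These whole-domain reads include the gaps between joined peaks. Peaks filled a median of 46.4% of a broad domain but 100% of a shorter one. With reads inside joined peaks only, the broad domains stood at 0.435 (0.432 to 0.439), with 375 lower by the 2-fold rule. The part of the gaps in the rise with length was not tested.

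All of these ratios depend on the scaling. At shared H3K27me3 regions, where peaks were listed in each genotype and overlapped, the median null over wild-type ratio was 0.495, or -1.02 on the log2 scale. When the libraries were scaled to make that median equal to 1, the pooled ratio in the broad domains was 1.07 (1.06 to 1.08), which reverses its direction, and 1 domain was lower and 2 were higher by the 2-fold rule. The order of the length classes does not depend on this factor.

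**Figure D2:**
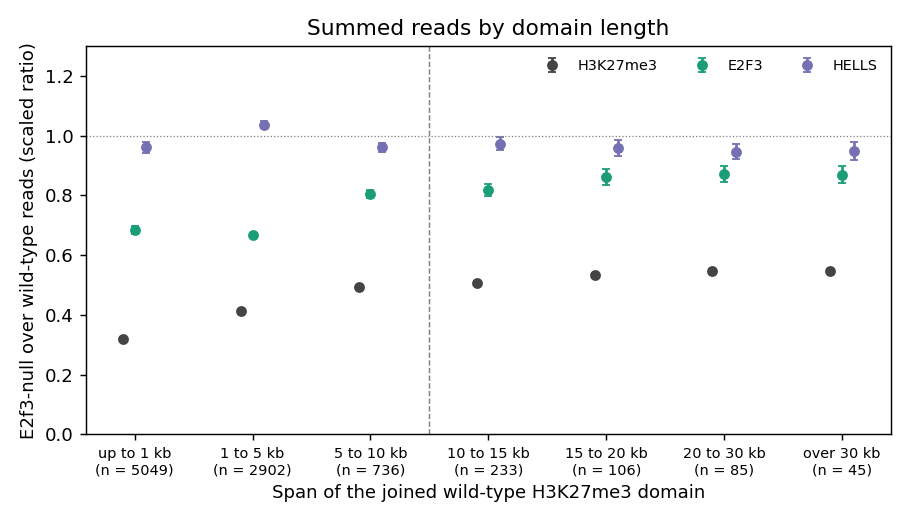
E2f3-null over wild-type reads (scaled ratio) against the span of the joined wild-type H3K27me3 domain, for the 3 antibodies, with the number of domains in each class. Points are ratios of summed reads and bars are 95% intervals for counting error; broad domains lie right of the dashed line. H3K27me3 points run from 0.320 to 0.547, E2F3 points are lowest at 1 to 5 kb and HELLS points stay between 0.94 and 1.04.

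One domain stood apart from the rest. In chr2:103561819-103598020, of 36202 bp, wild-type cells had 913 H3K27me3 reads and null cells 44, fewer than the 177 of IgG, a ratio of 0.0647 (0.0467 to 0.0876). The next lowest ratio in any broad domain was 0.320. Its 20 wild-type peaks were narrow, 232 to 734 bp, and they held 857 of the wild-type reads in 9.09 kb, against 56 reads in 27.1 kb of gaps. In the null library the same peaks held 8 reads and the gaps 36. The E2F3, HELLS and IgG libraries showed no such contrast: wild-type E2F3 had 31 reads in the peaks and 78 in the gaps, and IgG 61 and 116. A single wild-type library shows this pattern, and its cause was not tested. Without this domain the pooled ratio was 0.532 and 158 domains were lower.

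The other low ratios were those of chr8:94880168-94891179, with 399 wild-type and 95 null reads and a ratio of 0.320, chr17:34806748-34817632, with 985 and 237, chr8:72403389-72415094, with 1557 and 393, and chr15:98917545-98930394, with 823 and 214. Of these, 2 were among the 5 densest wild-type domains. The highest ratios were found in domains with wild-type enrichments of 3.16 to 5.95, below the median, led by chr5:120101489-120113603 with 171 and 140 reads and a ratio of 1.10 (0.873 to 1.38) at a null enrichment of 5.77, and chr5:113282371-113294400 with 118 and 92 reads and a ratio of 1.05 (0.788 to 1.39). The remaining 3 of the 5 highest lay on chromosomes 9 and 1 at 0.943 to 0.967. Every interval of these 5 included 1. Across the 469 domains the ratio ran against the wild-type read density, with a Spearman coefficient of -0.62. Both share the wild-type library, so this is given as a description only. Null and wild-type enrichment ran together, with a coefficient of 0.84, and both share IgG.

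Inside a domain the 2 libraries had different shapes. Wild-type enrichment stood at 13.9 in the highest-scoring peak of each domain, at 9.11 in its other peaks and at 3.17 in its gaps, an order fixed by the peak calls of the same library. The null library, which had no part in those calls, kept the order but was much flatter, at 5.32 (5.21 to 5.43), 4.35 (4.28 to 4.42) and 3.54 (3.47 to 3.60). In the gaps the null over wild-type ratio was therefore 1.12 (1.10 to 1.13), whereas it was 0.477 in the other peaks and 0.383 in the highest one. Since peaks and gaps were taken from the wild-type library, this contrast is a description.

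The ends showed the same. From the 500 bp just outside an end to the 500 bp just inside it, wild-type enrichment went from 2.83 to 7.68, a step that the rule sets. Null enrichment went from 3.06 to 3.60 over the same bins and reached 4.14 in the bin centred 1250 bp inside. In the bins centred 2750 and 3250 bp outside it was 1.91 and 1.97, so that it sloped across the ends of the wild-type domains. Within the domains position mattered little. The middle and outer parts of equal length had null over wild-type ratios of 0.528 and 0.533, and null enrichments of 4.46 and 4.09.

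**Figure D3:**
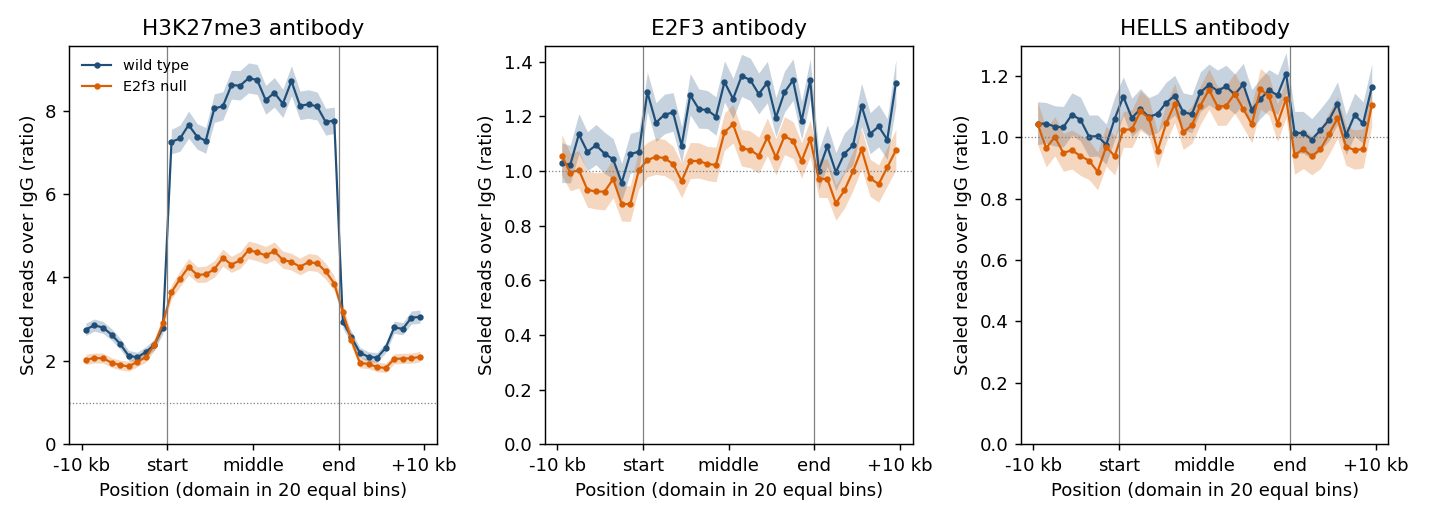
Scaled reads over IgG (ratio) across the 469 broad domains, each cut into 20 equal bins between start and end, and in 1 kb bins over 10 kb on either side. Lines are reads summed over domains for wild-type and E2f3-null libraries, shading is the 95% interval for counting error, and the vertical axes differ between antibodies. Wild-type H3K27me3 steps up at both ends, null H3K27me3 slopes, and E2F3 and HELLS reach at most 1.35 and 1.21.

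E2F3 and HELLS were then counted over the same domains. Neither library was used to choose them. Summed over whole broad domains, wild-type E2F3 enrichment was low, at 1.26 (1.24 to 1.27) pooled and 1.18 at the median, with a range of 0.583 to 2.66. It was at least 2-fold with an interval excluding 1 in 19 broad domains (4.05%), against 16.3% of all joined domains. With no fold limit the interval lay above 1 in 147 (31.3%), against 20.7%. In E2f3-null cells, where the antibody's target gene is mutated, the same antibody gave 1.07 (1.05 to 1.08), with 0 broad domains at 2-fold, against 5.14%. The shorter domains had a pooled wild-type E2F3 enrichment of 1.78, well above that of the broad ones. This came from spans of up to 5 kb: it was 1.95 at up to 1 kb and 1.94 at 1 to 5 kb. At 5 to 10 kb it was 1.39 (1.37 to 1.42), close to the 1.34 (1.31 to 1.37) at 10 to 15 kb.

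The null over wild-type ratio of E2F3 reads was 0.850 (0.837 to 0.862) pooled, and 354 of 469 domains lay below 1. Only 5 domains (1.07%) were lower by the 2-fold rule and 0 were higher, against 7.84% and 0.360% of all joined domains. With no fold limit 94 were lower (20%) and 1 was higher, against 12.0% and 0.404%. Windows of the same length starting 10000 bp outside the broad domains gave a nearly equal ratio of 0.871 (0.861 to 0.882). It was 0.875 (0.858 to 0.892) where these windows held no wild-type H3K27me3 peak. The nearer flanks gave 0.885 (0.869 to 0.901). The shorter domains gave 0.701 (0.695 to 0.707), but those of 5 to 10 kb gave 0.804 (0.791 to 0.818). At 10 to 15 kb the ratio was 0.819 (0.799 to 0.839). Without IgG subtraction, the difference in E2F3 reads over whole broad domains was therefore close to that of their surroundings. With IgG reads subtracted the ratio was 0.264 in the broad and 0.319 in the shorter domains, so that their order turned. In the broad domains this is a ratio of small remainders, since the antibody stood near IgG there, and it carries no interval. The windows outside stood at 1.15 over IgG in wild-type and 1.00 in null cells, so little remained there as well. The result also rests on the scaling: the shared E2F3 regions, defined in the same way, had a median ratio of 0.448, or -1.16 on the log2 scale. With that median set to 1 the broad domains stood at 1.90 (1.87 to 1.93), with 217 higher and 0 lower.

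Among domains whose interval excluded 1, the lowest E2F3 ratio was that of chr13:117083937-117104419, with 82 wild-type and 33 null reads, a ratio of 0.418 (0.270 to 0.634), and 1 wild-type E2F3 peak. The next were chr4:88918308-88928515, with 56 and 25 reads, and chr4:137964583-137977599, with 42 and 19, neither of which held an E2F3 peak. The domain whose interval lay above 1 was chr5:33870931-33883463, with 31 and 48 reads, a ratio of 1.61 (1.00 to 2.62).

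HELLS was close to IgG over whole broad domains, at 1.13 (1.11 to 1.14) in wild-type and 1.08 (1.06 to 1.09) in null cells. By the 2-fold rule 0 domains were enriched in wild-type cells and 1 in null cells, against 5.49% and 7.04% of all joined domains, and with no fold limit 78 (16.6%) were in wild-type cells, against 9.12%. The null over wild-type HELLS ratio was 0.958 (0.945 to 0.971) in the broad and 1.00 (0.993 to 1.01) in the shorter domains. It was 0.935 (0.924 to 0.946) in the windows starting 10000 bp outside and 0.937 (0.921 to 0.952) in the nearer flanks. No broad domain was lower or higher by 2-fold, against 0.994% and 0.633%, while with no fold limit 30 were lower and 8 higher, against 1.61% and 1.40%. Scaled to the shared HELLS regions, whose median ratio was 1.13 (0.18 on the log2 scale), HELLS stood at 0.845 (0.834 to 0.857) in the broad domains. With IgG reads subtracted it was 0.625 in the broad and 1.01 in the shorter domains. In the broad domains this is a ratio of 2 small remainders and carries no interval. The windows outside also stood close to IgG, at 1.08 in wild-type and 1.01 in null cells.

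Among domains whose interval excluded 1, the lowest HELLS ratios were those of chr8:4205521-4217868, with 61 and 32 reads and a ratio of 0.521 (0.329 to 0.812), chr15:35223071-35233074, with 69 and 37 reads, and chr17:36352337-36362694, with 46 and 26. The highest were those of chr10:19071829-19085018, with 38 and 61 reads and a ratio of 1.59 (1.05 to 2.46), chr9:20645941-20658342, with 38 and 60, and chr2:179830261-179840576, with 59 and 86. Only the last of these 6 held a HELLS peak of either genotype, and it was in null cells.

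The signal of both antibodies was uneven within the domains, and higher at H3K27me3 peaks than between them. Wild-type E2F3 enrichment was 0.983 (0.960 to 1.01) in the gaps between H3K27me3 peaks, 1.24 in the peaks other than the highest and 1.72 (1.68 to 1.77) in the highest-scoring H3K27me3 peak of each domain. Wild-type HELLS stood at 1.02, 1.11 and 1.33 in the same order, and null HELLS at 0.958, 1.03 and 1.37. The E2F3 antibody in null cells had the same order, at 0.953, 1.04 and 1.29 (1.26 to 1.33). In the highest peaks the null over wild-type ratio was 0.751 (0.730 to 0.771) for E2F3 and 1.03 (1.01 to 1.06) for HELLS.

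Peaks of either protein were then placed inside or at the edges of the broad domains. At least 1 wild-type E2F3 peak overlapped 174 broad domains (37.1%), against 17.9% of all joined domains, and at least 1 wild-type HELLS peak overlapped 73 (15.6%), against 5.95%. In null cells the numbers were 106 (22.6%) for the E2F3 antibody, against 8.19%, and 167 (35.6%) for HELLS, against 12.9%. Broad domains are long, and per length the order turns. Wild-type E2F3 peaks numbered 27.3 per Mb of broad domain and 107 per Mb of shorter domain, and wild-type HELLS peaks 9.33 and 33.1. The gap was far smaller between the nearest classes. At 5 to 10 kb E2F3 had 42.5 per Mb and HELLS 11.5, and at 10 to 15 kb 32.9 and 11.7. Overlap needed 1 bp, so a short domain can count a peak that lies mostly outside it. No peak of any of the 4 lists had its summit in 211 of the broad domains, a count that was not made for the shorter ones.

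E2F3 summits were counted at over 1000 bp inside a domain, within 1000 bp of an end on either side, and at 1000 to 10000 bp outside. Their density was 25.8 per Mb (22.3 to 29.7) inside, from 194 summits, 20.8 (14.8 to 28.4) at the edges, from 39, and 7.82 (6.05 to 9.95) in the flanks, from 66, against 3.52 over the autosomes. Wild-type HELLS summits followed at 9.30 (7.25 to 11.8), 5.33 (2.56 to 9.80) and 1.42 (0.734 to 2.48) per Mb, from 70, 10 and 12 summits, against 0.999. Null HELLS summits had 22.7 per Mb inside, 13.3 at the edges, 3.08 in the flanks and 1.89 over the autosomes. By reads, wild-type E2F3 enrichment was 1.38 (1.31 to 1.45) in the first 500 bp inside an end and 1.03 in the first 500 bp outside. It was 1.18 to 1.33 in the deeper bins, and each domain starts and ends with a wild-type H3K27me3 peak by the rule. For summits, the intervals of inside and edge overlapped for E2F3 and for HELLS of both genotypes. The edge zone reached to both sides of an end, so its density cannot show whether summits gather just inside. When gaps of up to 10000 bp were joined the order turned: E2F3 had 28.0 (23.0 to 33.9) summits per Mb at the edges and 19.1 (17.2 to 21.2) inside, and HELLS 9.09 (6.33 to 12.6) and 6.35 (5.25 to 7.62). False discovery rates bear on these peak lists. Of the 79 wild-type HELLS peaks with a summit in a broad domain, 64 (81.0%) had a rate above 5%, as did 88.4% of those elsewhere. Among the 194 null HELLS peaks and the 229 wild-type E2F3 peaks it was 0, inside and elsewhere. HELLS read ratios were near 1 over whole domains. At the 194 null HELLS peaks themselves the HELLS ratio was 1.34 (1.29 to 1.40), with 20 higher by the 2-fold rule and 0 lower, against 6.38% and 0.0214% of all autosomal null HELLS peaks. These were listed for their height in the null library, so this ratio is a description.

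**Figure D4:**
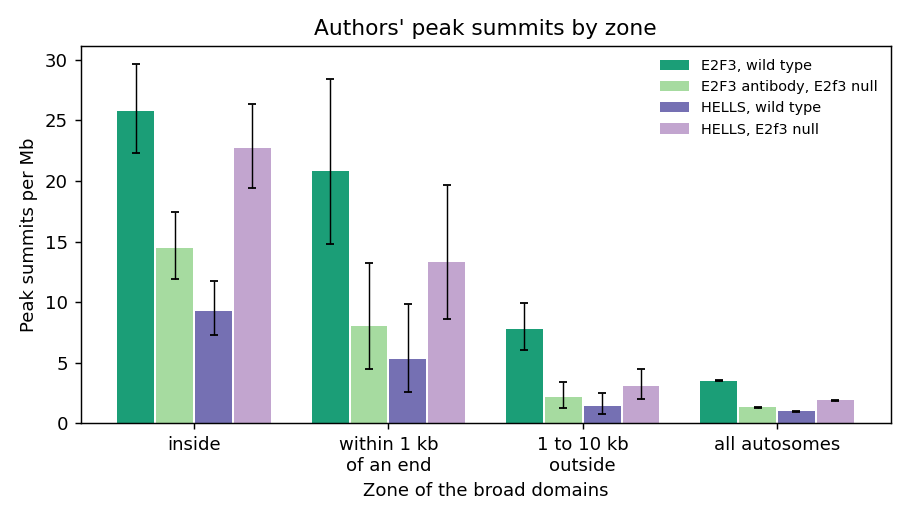
Summits per Mb (vertical axis) of the authors' E2F3 and HELLS peaks in 4 zones: over 1 kb inside a broad domain, within 1 kb of an end, 1 to 10 kb outside, and all autosomes. Bars are densities for each peak list and whiskers are exact Poisson 95% intervals; wild-type E2F3 goes from 25.8 inside to 7.82 in the flanks and 3.52 over the autosomes.

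All but 2 of the 229 wild-type E2F3 summits in the broad domains lay in a wild-type H3K27me3 peak (99.1%), although such peaks made up 47.7% of the length. For wild-type HELLS it was all 79. In null cells it was 192 of 194 (99.0%) for HELLS and 120 of 121 (99.2%) for the E2F3 antibody, so the share was not particular to 1 list. IgG was also denser in the H3K27me3 peaks, since 18935 of its 53190 reads in broad domains lay in the gaps. The E2F3 peaks in broad domains had a lower median score, 81.3, than the 7008 outside any H3K27me3 domain, at 144. The pooled null over wild-type ratio of E2F3 reads at these 229 peaks was 0.451 (0.432 to 0.471), with 118 (51.5%) lower by the 2-fold rule and 0 higher, against 73.5% and 0% of all autosomal wild-type E2F3 peaks. The ratio was 0.431 at E2F3 peaks in shorter domains and 0.313 outside any domain. HELLS at the same 229 peaks had a ratio of 1.16 (1.11 to 1.21), with 1 lower and 5 higher, against 0.654% and 2.34%, and 1.16 outside any domain. These peaks were listed for their height in the wild-type E2F3 library, so their E2F3 ratio is a description.

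Around those summits E2F3 formed a narrow peak. Enrichment reached 5.33 in the 250 bp bin just after the summit in wild-type and 2.06 in null cells, and in the bins centred 1125 bp to either side it was 1.12 and 1.5 in wild-type cells. HELLS rose at the same point, to 2.24 in wild-type and 2.74 in null cells. H3K27me3 was also highest there, at 14.0 in wild-type and 5.64 in null cells, against 7.87 and 4.20 in the bin almost 4 kb before the summit. All 3 antibodies were thus above IgG at these summits in both genotypes, the E2F3 antibody in null cells included.

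**Figure D5:**
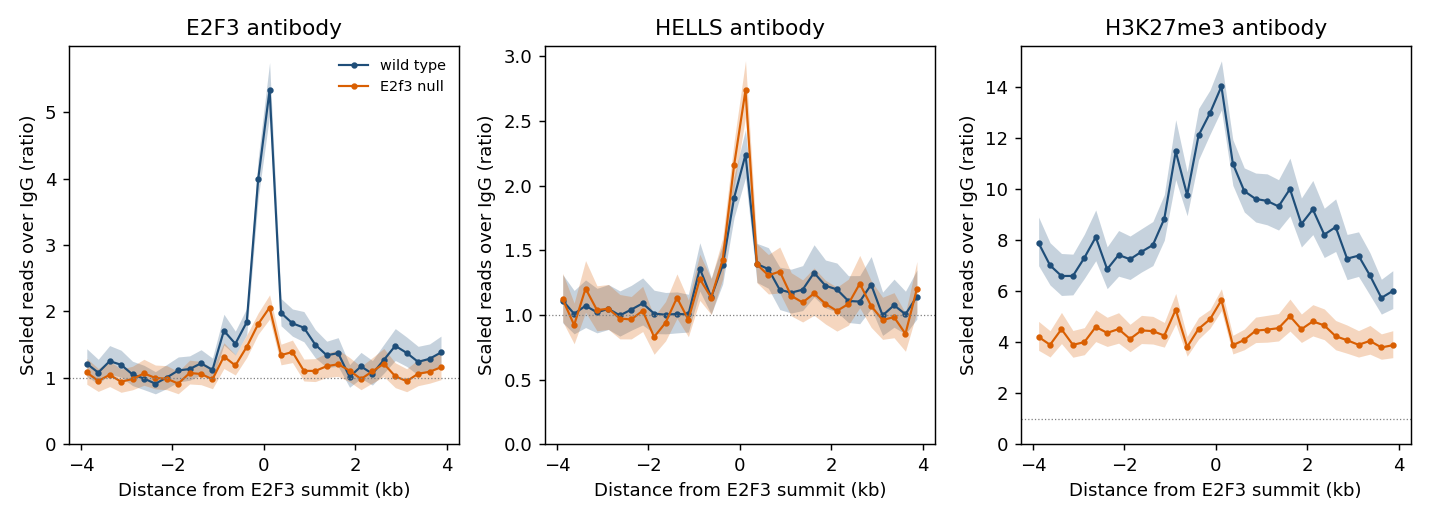
Scaled reads over IgG (ratio) against the distance in kb from the 229 wild-type E2F3 summits inside broad domains, in bins of 250 bp, for the 3 antibodies. Lines are sums over summits for wild-type and E2f3-null libraries and shading is the 95% interval for counting error; E2F3 reaches 5.33 and 2.06, HELLS 2.24 and 2.74, and H3K27me3 14.0 and 5.64.

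The highest-scoring E2F3 peak in a broad domain, chr11:68200090-68200750, had 56 wild-type and 24 null E2F3 reads and 17 and 37 HELLS reads, a HELLS ratio of 2.16 (1.19 to 4.09). At chr7:28146382-28146913 E2F3 gave 49 and 8 reads, and HELLS 13 and 17. At chr13:113777598-113778358 E2F3 gave 73 and 9 reads, the lowest ratio of these 3 at 0.128 (0.0563 to 0.257), and HELLS 12 and 14. The highest-scoring wild-type HELLS peak, chr12:57633907-57634505, had 25 and 12 HELLS reads over 4 for IgG, with 14 and 12 E2F3 reads. Its false discovery rate was 25%. Its HELLS ratio was 0.477 (0.218 to 0.985), whereas the 79 wild-type HELLS peaks in broad domains stood at 1.01 (0.948 to 1.08) pooled. These single peaks were chosen for their scores after the values had been seen.

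More E2F3 summits went with a larger E2F3 difference. The 295 broad domains without a summit had a null over wild-type E2F3 ratio of 0.919 (0.901 to 0.938), the 134 with 1 summit 0.805 (0.785 to 0.826) and the 40 with 2 or more 0.724 (0.697 to 0.752). For H3K27me3 the same classes had 0.551, 0.508 and 0.504, and for HELLS 0.935, 0.971 and 1.03. Of the 94 broad domains whose E2F3 interval lay below 1, 65 held a summit, which was 37.4% of all with a summit, and 29 did not, 9.83% of all without. E2F3 summits were listed in the same wild-type library, so this order is a description for E2F3. The H3K27me3 ratios are a description too, since the wild-type H3K27me3 library chose the domains. Wild-type H3K27me3 enrichment differed between the 3 classes, at 7.53, 8.80 and 8.69, and null enrichment was 4.15, 4.47 and 4.38. The broad domains with most E2F3 peaks after the 2 on chromosomes 2 and 6 were chr11:118896297-118928305, with 266 and 187 E2F3 reads, chr2:18610037-18621575, with 142 and 72, and chr4:114723807-114741495, with 121 and 83. The last 2 held 3 E2F3 peaks each, as did 4 others, and were named for their higher H3K27me3 score. Besides chr2:74485980-74554766, 3 broad domains held 2 HELLS peaks: chr14:122861146-122895542, with 182 and 191 HELLS reads, chr11:68192767-68205027, with 97 and 127, and chr13:31890411-31904208, with 137 and 149. Among the 69 with 1 HELLS peak, chr12:114150009-114170384 had the highest H3K27me3 score, and held 172 and 174 HELLS reads.

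E2F3 and HELLS peaks shared domains and positions. Both had a wild-type summit in 57 broad domains, E2F3 alone in 117, HELLS alone in 16 and neither in 279. HELLS summits occurred in both genotypes in 55 domains, in null cells alone in 111 and in wild-type cells alone in 18. None of these counts was made for the shorter domains, and the 2 HELLS lists differ in false discovery rate, so they show no gain or loss. By position, 21.6% (16.1 to 28.1) of null HELLS peaks in broad domains overlapped a wild-type HELLS peak, against 26.9% (25.6 to 28.2) elsewhere. A wild-type E2F3 peak lay under 70.9% (59.6 to 80.6) of the 79 wild-type HELLS peaks in broad domains and under 65.6% (63.6 to 67.5) of those elsewhere. The null lists differed more from the rest of the genome. For the 194 null HELLS peaks in broad domains the share was 46.4% (39.2 to 53.7), against 80.9% (79.7 to 82.1) of the 4480 elsewhere. For the 121 peaks of the E2F3 antibody in null cells it was 35.5% (27 to 44.8), against 77.6% (76.1 to 79.0) elsewhere. Of these 121, 50 (41.3%) had a false discovery rate above 5%, against 34.0% of those elsewhere. The part of such peaks in the lower overlap was not tested. For these last 2 lists the intervals inside broad domains and elsewhere did not overlap. Conversely, 39.3% of the 229 wild-type E2F3 peaks in broad domains overlapped a null HELLS peak, and 42.7% elsewhere.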

How the data were processed

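Chromatin was immunoprecipitated from wild-type and E2f3-/- fibroblasts, with 1 library per group, so nothing below is a test between conditions. The authors deposited the positions of aligned reads. Their build is mm9, per the submitters' processing notes, and the aligner is not given in the sources used here. Peaks were called per library with MACS 1.4.0beta at a p cutoff of 1e-05, per the file headers. Each deposited peak has a tag count, a score (the negative log10 of p, times 10), a fold enrichment over the local expectation as a ratio, and a false discovery rate in percent. Scores and rates are the authors' own and served to describe, rank and filter peaks within a list.

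From the deposited reads, 1 per position and strand was kept, moved by 60 bp towards the fragment centre, counted over each domain and scaled by distinct reads outside the 27092 peak regions of the series (21.5 Mb). The rule for a lower or higher domain asked for a 2-fold scaled ratio and for a 95% interval (exact, conditional binomial) that left out 1; shares carry Clopper-Pearson and densities exact Poisson intervals. These cover counting error only. Python 3.11.15, numpy 2.4.6, scipy 1.17.1, pandas 2.3.3 and matplotlib 3.10.9 were used, and the ratio calculation was tested on simulated counts. Overlap needed 1 bp. Named domains are the 5 longest, densest, and of lowest and highest H3K27me3 ratio, the 5 with most E2F3 and most HELLS peaks, the 3 of lowest and highest E2F3 and HELLS ratio whose interval excluded 1, and 5 on each side of the length limit. The members, lists and rules were chosen with earlier results of these data known. Alternatives are given in the closing part.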

Additional observations from a re-analysis of the deposited data

How the results depend on the processing

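Of 120 alternative values 62 stayed within the counting interval of the reported value or, for counts, within 1.5 times of it. No paired analysis was possible because each group has 1 library, and for the same reason no replicate could be left out. A direction reversed 2 times, both when libraries were scaled to the median of the shared regions of each antibody: H3K27me3 to 1.07 (1 lower, 2 higher) and E2F3 to 1.90 (0 lower, 217 higher), while HELLS moved to 0.845 (3 lower). Scaling by all distinct reads gave H3K27me3 0.586 (79 lower) and E2F3 0.907 (2 lower). Reads inside peaks only gave H3K27me3 0.435 (375 lower), E2F3 0.803 (16 lower, 1 higher) and, for HELLS, 3 lower. IgG subtraction gave 0.464 for H3K27me3, 0.264 for E2F3 and 0.625 for HELLS, the last 2 from small remainders over IgG. A 1.5-fold threshold called 392 domains lower for H3K27me3, 55 lower and 1 higher for E2F3, and 15 lower and 2 higher for HELLS.

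Membership itself depended on the joining rule. A gap of 2000 bp left 175 broad domains, with H3K27me3 at 0.491 (90 lower), 1 lower for E2F3, 1 higher for HELLS, 34.0 E2F3 summits per Mb inside and 97.1% holding a null peak. A gap of 10000 bp gave 963, with H3K27me3 at 0.556 (273 lower), 20 lower and 1 higher for E2F3, 1 lower for HELLS, 19.1 E2F3 and 6.35 HELLS summits per Mb inside against 28.0 and 9.09 at edges, the opposite of the reported order, and 77.6% holding a null peak. Spans over 15000 bp left 236, with H3K27me3 at 0.542 (64 lower) and E2F3 at 0.867 (1 lower). Wild-type peaks of score 100 or more left 216, with H3K27me3 at 0.498 (108 lower, a larger share than the 159 of 469), E2F3 at 0.836 (3 lower) and HELLS at 0.974. With chromosome X there were 471.

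With E2F3 and HELLS peaks of score 100 or more, E2F3 summits per Mb were 9.17 inside and 5.86 at edges, and HELLS 0.797 and 0. Null peaks with a false discovery rate of at most 5% were in 73.1% of domains and those of score 100 or more in 72.7%. The cause of these shifts was not tested. Leaving out the domain of lowest H3K27me3 ratio was chosen after seeing the data. Domains held few E2F3 and HELLS reads, at medians of 77 and 81 in wild-type cells, which limits what a single domain can show.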
